A study of Homo sapiens with 21 samples.

Results

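TREM2-R47H microglia were compared with unedited microglia by the peaks called in their open chromatin, in 3 libraries of each line, 6 of the 21 libraries of the series. Peaks that shared at least 1 bp over the 6 lists were merged into 127490 regions, and each region was described by the libraries that called it, by the width of its peaks, by its place relative to genes and by its position in each list. ATAC-seq, in which a transposase cuts accessible DNA and the cut ends are sequenced, was run on microglia-like cells differentiated from the human embryonic stem cell line H9. The TREM2-R47H line carries the arginine-to-histidine change at residue 47 of TREM2, made homozygous by CRISPR/Cas9 with a single-stranded repair template, and the comparison line is labelled WT. In both lines haematopoietic progenitors collected on day 11 were fed IL-34, TGF-beta 1 and M-CSF for 28 days, with CD200 and CX3CL1 in the final 3 days, and 80000 viable cells per line were sorted for the assay. The labels say that edited clones were isolated and screened but not how many clones make up the line, whether the WT line went through cloning, or whether replicates are separate differentiations. The p-values below therefore measure only the spread between these samples, which may be technical, and the edit cannot be told apart from anything else that differs between the edited clone and the WT line.

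TREM2 is a lipid-sensing receptor of microglia that binds lipoproteins, apolipoprotein E and other lipid ligands. It has no signalling tail of its own and works through the adapter TYROBP (DAP12), which recruits the kinase SYK and, further on, phospholipase PLCG2. The R47H change lowers ligand binding and is one of the best known rare coding risk variants for late-onset Alzheimer's disease, and TREM2 is needed for the shift of microglia into the disease-associated state, with APOE, LPL, CTSD and ITGAX among its genes.

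Library depth followed the replicate number, not the line. The 3 TREM2-R47H libraries held 67369215, 16873086 and 50315684 tags and the 3 WT libraries 65373112, 15464506 and 48456426. The deposited lists gave 87270, 55061 and 93066 peaks in TREM2-R47H and 96241, 46956 and 95266 in WT (exact permutation test, two-sided, p = 0.9, n = 3 per line, smallest possible p 0.1). Per the file headers, 47.03%, 66.27% and 66.51% of the TREM2-R47H tags lay in peaks, against 57.59%, 72.48% and 73.16% of the WT tags. The TREM2-R47H value was the lower one at each replicate number, with differences of -10.56, -6.21 and -6.65 points, but the lines overlapped (exact permutation p = 0.5). At 755 bp, the median peak width of TREM2-R47H 1 stood apart from the 628 to 641 bp of the other 5 libraries. Gene ends, within 1 kb of the start or end of a protein-coding gene, held 15.9%, 20.01% and 14.5% of TREM2-R47H peaks and 14.1%, 20.01% and 13.6% of WT peaks (exact permutation p = 0.5). Peaks inside genes differed by -0.0134 points between line means (p = 0.9), peaks outside genes by -0.882 points (p = 0.5) and median width by 39 bp (p = 0.6, all exact permutation tests). The share of covered bases that 2 libraries had in common, the Jaccard index, was 0.642, 0.537 and 0.635 for the same replicate number across lines. Its median was 0.479 within a line and 0.477 across lines and numbers. Starts of marker genes were called as follows, counted apart from the merged regions used below, so a start can be uncalled where the region over it is called. Of 14 microglia and macrophage markers, 12, 10 and 12 starts were called in TREM2-R47H and 12, 8 and 12 in WT, while the starts of P2RY12 and IRF8 were called in no library. Of 8 pluripotency markers 1 to 3 starts were called, and the start of NANOG in none. Of 9 erythroid and megakaryocyte markers 1 to 3 starts were called, with that of GATA1 in none, and of 11 neural markers 0 to 3. Of 11 monocyte and granulocyte markers 2 to 5 were called, of 7 lymphocyte markers 2 to 5 and of 8 mesenchymal and endothelial markers 0 to 2. Of 7 perivascular macrophage markers 5, 3 and 6 were called in TREM2-R47H and 5, 2 and 4 in WT. Progenitor markers (11) had 5, 4 and 5 against 7, 4 and 6. Mast cell and basophil markers (10) had 2, 2 and 2 against 4, 3 and 4. The start of KIT was called in the 3 WT libraries alone, and that of FCER1A in 2 WT libraries alone. Of the other mast cell and basophil markers, the starts of HPGDS and SIGLEC6 were called in all 6 libraries and the rest in none.

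The promoters below belong to the genes whose start regions carried the clearest presence or absence differences (IRAK4, H2BC3, SMAD3 and MEOX2), to the edited gene and to its ligand APOE. Each runs 5′ to 3′ on the strand of its gene from 250 bases before to 50 bases after the RefSeq start (GRCh38.p14). Capitals mark matches, on either strand, to 7 short motifs. The ETS motif that PU.1 prefers, GAGGAAGT, occurs in 2.54% of the 27195 promoters in the table. A general ETS motif, CCGGAAGT, occurs in 4.45%. The AP-1 motif TGANTCA occurs in 7.73%. The CCAAT box, searched as CCAAT, occurs in 35.7%. The E-box CACGTG occurs in 7.45%. The GC box GGGCGG occurs in 44.7%. The TATA box TATAAA occurs in 11.97%.
IRAK4: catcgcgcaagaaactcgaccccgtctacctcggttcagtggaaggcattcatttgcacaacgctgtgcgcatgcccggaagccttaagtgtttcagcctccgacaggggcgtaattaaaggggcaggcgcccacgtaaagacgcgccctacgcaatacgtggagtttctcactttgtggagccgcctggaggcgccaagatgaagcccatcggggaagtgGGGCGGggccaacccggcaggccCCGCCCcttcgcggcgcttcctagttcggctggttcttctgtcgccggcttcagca
H2BC3: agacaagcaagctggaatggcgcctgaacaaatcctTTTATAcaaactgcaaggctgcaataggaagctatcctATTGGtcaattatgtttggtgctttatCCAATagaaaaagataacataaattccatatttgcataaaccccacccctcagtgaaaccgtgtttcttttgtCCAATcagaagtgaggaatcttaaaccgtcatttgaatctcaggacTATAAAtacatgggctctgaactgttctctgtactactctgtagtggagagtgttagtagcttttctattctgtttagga
SMAD3: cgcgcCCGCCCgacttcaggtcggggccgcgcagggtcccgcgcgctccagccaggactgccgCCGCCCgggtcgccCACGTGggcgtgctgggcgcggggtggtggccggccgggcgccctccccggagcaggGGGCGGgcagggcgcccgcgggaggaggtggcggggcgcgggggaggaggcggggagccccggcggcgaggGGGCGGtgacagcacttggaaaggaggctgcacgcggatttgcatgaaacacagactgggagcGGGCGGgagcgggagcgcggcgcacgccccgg
MEOX2: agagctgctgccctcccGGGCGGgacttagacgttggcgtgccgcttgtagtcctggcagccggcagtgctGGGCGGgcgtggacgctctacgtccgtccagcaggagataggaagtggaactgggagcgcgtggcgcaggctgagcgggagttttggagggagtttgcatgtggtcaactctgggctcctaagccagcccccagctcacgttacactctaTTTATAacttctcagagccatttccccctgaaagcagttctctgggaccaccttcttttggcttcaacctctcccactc
TREM2: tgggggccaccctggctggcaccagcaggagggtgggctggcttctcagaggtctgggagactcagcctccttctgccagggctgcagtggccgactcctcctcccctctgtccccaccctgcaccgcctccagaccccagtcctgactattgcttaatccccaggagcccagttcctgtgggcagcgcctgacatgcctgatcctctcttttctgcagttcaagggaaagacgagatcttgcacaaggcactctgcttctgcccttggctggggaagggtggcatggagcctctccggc
APOE: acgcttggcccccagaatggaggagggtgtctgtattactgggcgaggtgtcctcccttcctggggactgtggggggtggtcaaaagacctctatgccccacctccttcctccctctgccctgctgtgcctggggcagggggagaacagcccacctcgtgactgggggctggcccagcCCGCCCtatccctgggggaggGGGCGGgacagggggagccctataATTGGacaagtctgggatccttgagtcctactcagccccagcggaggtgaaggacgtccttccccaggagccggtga
The windows lie at chr12:43758701-43759000 (plus strand, IRAK4), chr6:26043664-26043963 (minus, H2BC3), chr15:67065352-67065651 (plus, SMAD3), chr7:15686634-15686933 (minus, MEOX2), chr6:41163067-41163366 (minus, TREM2) and chr19:44905546-44905845 (plus, APOE). The IRAK4 window holds 2 GC boxes and is 61.7% G and C. The H2BC3 window holds 3 CCAAT boxes and 2 TATA boxes and is 38.7% G and C. SMAD3 has 5 GC boxes and 1 E-box at 80.3% G and C, MEOX2 has 2 GC boxes and 1 TATA box, and APOE has 2 GC boxes and 1 CCAAT box. None of the 7 motifs matched in the TREM2 window, which says only that these letters are not there.

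All 6 libraries called 36579 of the merged regions, and 30962 had a peak in a single library. A region was counted as gained when all 3 TREM2-R47H libraries and no WT library called it, and as lost in the reverse case. There were 219 gained regions (0.172% of all merged regions) and 509 lost regions (0.399%), among 12530 regions called in exactly 3 libraries. These calls carry no test and lean on the shallow libraries. A gained region must be called in TREM2-R47H 2 and a lost region in WT 2, the shortest list of each line. Without TREM2-R47H 2 there were 2641 gained regions, without WT 1 1036, without WT 3 573 and without TREM2-R47H 1 445. Without WT 2 there were 4132 lost regions, without TREM2-R47H 3 1440 and without WT 1 827. With every list held to its first 46956 peaks, 0.781% of the merged regions were gained and 0.991% lost, and these took in 11 of the 219 and 24 of the 509 found in the full lists.

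The lost region highest in file order lay at IRAK4, the kinase that carries signals from Toll-like and interleukin-1 receptors. The region chr12:43758106-43759812 covers the start of IRAK4 and also lies at a gene end, which can be a start, of PUS7L, a pseudouridine synthase gene. It was 1707, 1019 and 1182 bp wide in the 3 WT libraries, where it stood at file-order percentiles 93.8, 84.6 and 94.0 (100 is the first peak of a list). None of the 3 TREM2-R47H lists had a peak there, although 2 of them are long. All 15 libraries of the other 5 lines called it. Of the 3 regions assigned to IRAK4 and the 5 assigned to PUS7L, the start region among them, 1 each was lost. The regions over the starts of the neighbouring genes TWF1, an actin-binding protein, and TMEM117 were called in all 6 libraries. Inside TWF1, chr12:43803956-43804584 was called in all 3 TREM2-R47H libraries and in no WT library. The IRAK4 region met the same rule when every list was held to the same number of peaks. A shortened list holds no new peak, so this reflects only how early the WT peaks stand in their lists.

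A pair of lost regions lay in another IRAK gene, IRAK3. IRAK3 encodes the inhibitory IRAK-M of monocytes and macrophages. Inside it, chr12:66195094-66195924 and chr12:66196714-66197386 were called in all 3 WT libraries and in no TREM2-R47H library, and in 15 and 13 of the 15 libraries of other lines. The region over the IRAK3 start, chr12:66188606-66192133, was called in all 6. Over the 11 regions nearest to IRAK3, the TREM2-R47H libraries called 6, 6 and 7 and the WT libraries 11, 8 and 11. These counts include the 2 lost regions for which the gene is named, so the gap is partly set by that choice. The 6 that all 6 libraries called went the other way, each higher on average in TREM2-R47H by adjusted file-order percentile (described below). Their library means were 76.3, 77.3 and 74.6 in TREM2-R47H against 73.7, 63.4 and 74.9 in WT, so the lines overlapped. Both lost regions met the rule at equal list lengths too, which likewise reflects how early their WT peaks stand.

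Other lost gene-end regions included that over the starts of the histone genes H2BC3 and H3C3, chr6:26043086-26045917. Over the other lines it was all-or-none as well, with 3 of 3 libraries in INPP5D and SORL1-KO and 0 of 3 in CD33, SORL1-A528T and TREM2-KO. The start of COL21A1, a fibril-associated collagen, lay in a lost region (chr6:56393900-56394870) called in 12 of 15 other libraries. The other 7 lost gene-end regions lay at POLGARF, SH3RF1, ARSL, EEF1E1, CRTAM, LOC107985043 and ATOH8, and of these that at ATOH8 covered its start. Lost regions away from gene ends that stood highest in file order lay near DKK2, a Wnt antagonist, inside GRIN3A, an NMDA receptor subunit, and at chr14:39975397-39976804, with no gene within 100 kb. Next came chr6:60737829-60738792 and chr8:46566461-46567403, PLXNA4 (a semaphorin receptor), chr4:159574446-159575465, the first of the IRAK3 pair, a region near the cell cycle kinase gene CDK6, and EEF1E1. Lost regions that every one of the 15 libraries of other lines called, a feature chosen after the values were seen, numbered 8. They lay at IRAK4, IRAK3, CDK6, PDZRN3, NCAPG2, MRC1, LOC124900866 and chr13:74831978-74832906. Lost regions were also nearest to the receptor-proximal kinase SYK (chr9:90839116-90839809, called in 13 of 15 other libraries) and to the engulfment genes ELMO1 and DOCK1.

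The gained region highest in file order at a gene end covered the start of SMAD3, a transducer of TGF-beta signals, which these cultures received. The region chr15:67065025-67066216 was 1159, 764 and 963 bp wide in TREM2-R47H, at percentiles 69.5, 38.96 and 54.8, and was called in no WT library. It was called in 5 of 15 libraries of other lines, 2 of SORL1-KO and 1 each of CD33, INPP5D and TREM2-KO. Over the 19 regions nearest to SMAD3, the gained start region among them, TREM2-R47H libraries called 17, 6 and 16 and WT libraries 13, 0 and 11. The lines overlapped, but the TREM2-R47H library had more at each replicate number, and WT 2 called none.

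MEOX2, a homeobox gene of mesoderm, had the next gained start (chr7:15685606-15687200), which 3 of 15 other libraries called. Starts of TMCC2, CDHR1, CPEB1 (a regulator of messenger RNA polyadenylation), the AMPA receptor gene GRIA2 and TSPAN11 also lay in gained regions, and other gene-end regions lay at TAGLN2, TSPYL2, FBLN2, XKR7, RASSF10, the macrophage chemokine gene CCL22 and DEFB124. Away from gene ends the gained regions highest in file order lay inside ZFPM2, a cofactor of GATA factors, near PRDM11, at a start of the orphan nuclear receptor gene ESRRG, inside CDH8, near ZNF184 and near EPHB2, followed by chr8:12560726-12564836, HFM1, UBAC2 and FBXL17. Those at SMAD3, MEOX2, ZFPM2, PRDM11, CDH8, ZNF184 and EPHB2 met the rule at equal list lengths, as did regions at CERS6, ADRA1B, chr8:20439290-20440061 and SLC24A4, an Alzheimer risk locus. Where a region was gained in the full lists, this reflects how early its TREM2-R47H peaks stand, as a shortened list holds no new peak. Near genes of the lists used below, gained regions also lay at BCOR (2 regions), MED14, CASK, the AP-1 family genes FOSL2 and BATF3, and NFKBIZ, whose region was called in none of the 15 other libraries.

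Gained and lost regions differed in how often other lines called them, as the plot of calls in the 15 other libraries shows. Gained regions had a median of 4 calls and 41.1% had 3 or fewer. Lost regions had a median of 8 calls, and 14.9% had 12 or more against 1.37% of gained regions. All regions called in exactly 3 of the 6 libraries had a median of 6 calls, with 19.8% at 3 or fewer and 3.73% at 12 or more. TREM2-KO, the line without TREM2, called lost regions in 64.0% and gained regions in 25.9% of possible cases, against 41.7% for the regions called in exactly 3. In CD33 the shares were 64.1%, 38.2% and 53.7%, in SORL1-A528T 48.5%, 12.2% and 27.4%, and in INPP5D 46.8%, 32.1% and 39.3%. SORL1-KO stood apart from these 4 lines, with 37.2% for lost and 34.7% for gained regions, both below the 41.7% of regions called in exactly 3. These shares are descriptions, since the lines differ in depth and the sets were chosen by their calls. Gene ends held 6.39% of gained, 1.96% of lost and 5.85% of the regions called in exactly 3.

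**Figure D1:**
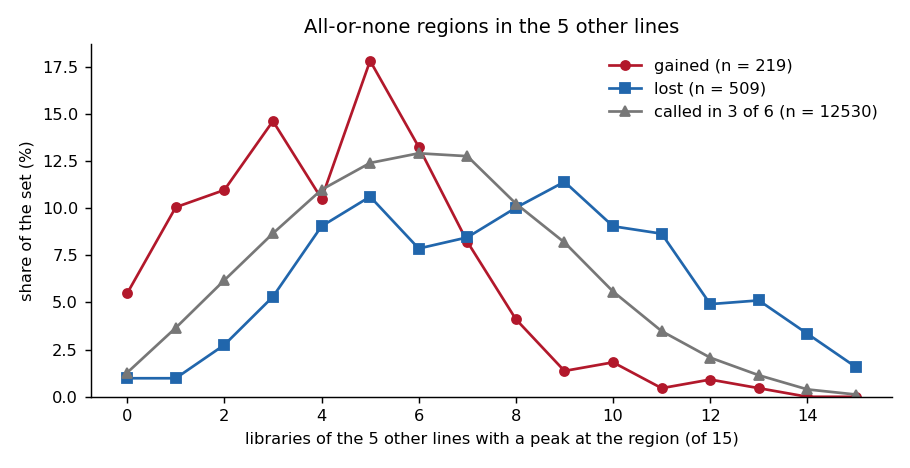
Share of each set of regions (y axis, %) by the number of the 15 libraries of the other 5 lines that have a peak there (x axis), for 219 gained regions, 509 lost regions and 12530 regions called in exactly 3 of the 6 libraries. Gained regions have a median of 4 calls, lost regions 8 and the regions called in exactly 3 have 6.

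At the edited gene itself, 8 regions lay within 50 kb of TREM2. The TREM2-R47H libraries called 8, 3 and 6 of them and the WT libraries 5, 4 and 5, so the lines overlapped. The region over the TREM2 start, chr6:41161604-41163574, was called in every library but WT 2. By the count of starts used for the marker genes, the TREM2 start was called in 2 libraries of each line. None of the 8 was all-or-none.

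Around APOE, which encodes a lipoprotein ligand of TREM2 and whose name is in the title of the series, 15 regions lay within 50 kb, from NECTIN2 to CLPTM1. TREM2-R47H libraries called 15, 10 and 14 of them and WT libraries 12, 6 and 10, or 86.7% against 62.2% of possible calls. The lines overlapped, and the TREM2-R47H library called more at each replicate number. The region over the APOE start (chr19:44905297-44906932) was called in TREM2-R47H 1, TREM2-R47H 3 and WT 3. A region near APOC1, chr19:44912551-44913523, was called in TREM2-R47H 1 and TREM2-R47H 3 and in 1 of 15 libraries of other lines. No region within 50 kb of APOE was all-or-none, and WT 2, which is the shallowest library, lacked 9 of the 15. For the signalling genes below TREM2, the TREM2-R47H libraries called 15, 8 and 14 of 19 regions within 50 kb of SYK against 16, 8 and 15 in WT. Around PLCG2 they called 29, 20 and 29 of 36 against 32, 16 and 30, and within 10 kb of TYROBP 4, 2 and 2 of 5 against 3, 2 and 4. At these 3 genes neither line was the higher at every replicate number.

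**Figure D2:**
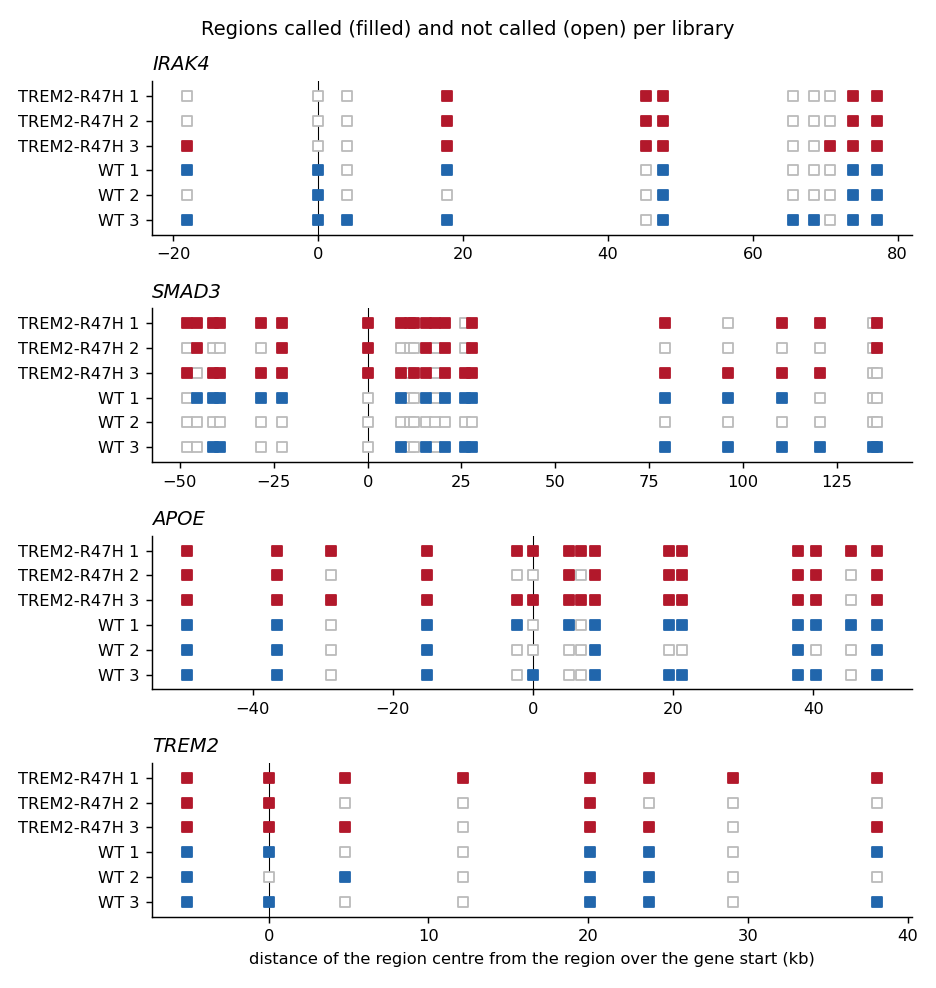
Each row is a library and each square a region within 50 kb of IRAK4, SMAD3, APOE or TREM2, filled where called and open where not, placed by the distance of its centre (kb) from the region over the gene's start. The IRAK4 start region is filled in the 3 WT libraries alone and the SMAD3 start region in the 3 TREM2-R47H libraries alone.

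To compare genes across libraries of unequal depth, each call was taken as its difference from the mean call of regions of the same recurrence (called in the same number of the 6 libraries) in that library, and averaged over the regions of a gene. A positive value means that the gene's regions were called more often than like regions of that library. None of 7194 genes with at least 5 regions passed in limma at a Benjamini-Hochberg adjusted p under 0.05 (0%, smallest adjusted p 0.328). At an unadjusted p under 0.05 there were 521 genes higher in TREM2-R47H (7.24%) and 347 lower (4.82%). Because a region that is truly present or absent takes different adjusted values in deep and shallow libraries, the spread within a line is wide on this scale. In simulated data this test called none of the genes built to differ, not even those called throughout one line and nowhere in the other, so that no gene passed here says nothing on whether genes differ. A fit with a term for the replicate number called most of those built with large differences, and in it none of the 7194 measured genes passed either (limma, smallest adjusted p 0.305). The tests of windows and chromosomes use the same scale and were not tried on simulated data.

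Smallest p-values among genes with higher values in TREM2-R47H went to ACACB, the mitochondrial acetyl-CoA carboxylase, FAM187B, ACSF2, an acyl-CoA synthetase, TMCC2 and ADAM32. For ACACB, 60%, 40% and 80% of 5 regions were called in TREM2-R47H and 20%, 0% and 20% in WT, a depth-adjusted difference of 0.486 (SE 0.0856, limma adjusted p = 0.328). Every TREM2-R47H library was above every WT library, which the choice of genes by smallest p favours. On the lower side stood RGS7, a regulator of G protein signalling, CEP41, RAPGEF4, a cyclic AMP-regulated exchange factor, SRD5A2 and TMEM174. In RAPGEF4 61.1%, 16.7% and 55.6% of 18 regions were called in TREM2-R47H against 94.4%, 44.4% and 88.9% in WT, a difference of -0.328 (SE 0.070, limma adjusted p = 0.328). At RGS7 the shares of 14 regions were 42.9%, 21.4% and 57.1% against 92.9%, 50.0% and 85.7%.

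Gene lists were described by counts and medians beside all genes tested, for which the median difference was 0.00988 and 3816 of 7194 differences (53.0%) were positive. At an unadjusted p under 0.05, 7.24% of all genes were higher and 4.82% lower. Those shares stand beside the counts of each list below, which are small and were not tested against them. No list held a gene past the adjusted threshold. Of 17 disease-associated microglia genes tested, 14 had a positive difference and 5 had an unadjusted p under 0.05 on the higher side, none on the lower, with a median of 0.0732. They included CTSD, a lysosomal protease (0.283, SE 0.0781), FTH1, the ferritin heavy chain (0.257, SE 0.0719), and ITGAX, the integrin CD11c (0.214, SE 0.0703). Of 30 genes at Alzheimer risk loci, 24 were positive and 5 had an unadjusted p under 0.05, all higher, with a median of 0.0754.

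Lysosomal and TFEB family genes were positive in 14 of 16 (median 0.0742, 2 with an unadjusted p under 0.05). TFEB, the regulator of lysosome genes, had a difference of 0.259 (SE 0.108). In the lipid and cholesterol list 12 of 19 were positive (median 0.0844), with 3 at an unadjusted p under 0.05, among them the lipoprotein receptor LRP1 (0.269, SE 0.105). LPL, the lipoprotein lipase of the TREM2 ligand list, had 0.213 (SE 0.0727).

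Of 30 genes in TREM2 signalling, 20 were positive, with a median of 0.0323. At an unadjusted p under 0.05, 3 of the 30 were higher, beside 7.24% of all genes. Among these were the exchange factor VAV2 at 0.223 (SE 0.0723) and the kinase subunit PIK3CD at 0.187 (SE 0.066). In phagocytosis 17 of 30 were positive (56.7%, near the 53.0% of all genes), with a median of 0.0607 and 4 higher and 1 lower at an unadjusted p under 0.05. The Fc receptor FCGR3A had 0.336 (SE 0.0985) and PROS1, a bridging protein of dying-cell uptake, -0.177 (SE 0.0741).

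Myeloid transcription factors were positive in 26 of 32 (median 0.0450), 4 with an unadjusted p under 0.05 on the higher side and 1 on the lower. SMAD3 had 0.264 (SE 0.0700), RUNX1 0.255 (SE 0.0830), IRF8 0.184 (SE 0.0731), and GFI1 -0.197 (SE 0.0675), while SPI1, which encodes PU.1 and did not reach that p, had 0.154 (SE 0.0696). AP-1 and ATF factors were positive in 7 of 9 (median 0.0808). Homeostatic microglia genes had a median of 0.0644 with 10 of 15 positive, interferon genes 0.0653 with 7 of 10, and the NF-kB and cytokine genes 0.00287 with 11 of 22, which is below the positive share of all genes. The limma adjusted p of each gene named here lay between 0.328 and 0.414.

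Positive medians were not confined to microglial lists. Microglia and macrophage markers had a median of 0.112 over 8 genes, neural markers 0.160 over 8, lymphocyte markers 0.0763 over 3 and housekeeping genes 0.0749 over 5. Erythroid and megakaryocyte markers had -0.0634 over 3, with GYPB, a glycophorin, at -0.267 (SE 0.0654), and progenitor markers -0.00429 over 9, with the homeobox gene MEIS1 at -0.206 (SE 0.0776). Of the mast cell and basophil markers, KIT had -0.0339 (SE 0.0820) over 26 regions and HPGDS 0.105 (SE 0.0867) over 11. Perivascular macrophage markers had a median of 0.0590, with 4 of 6 positive, and their members differed in direction. The chemokine receptor gene CCR1 had 0.216 (SE 0.0824), the scavenger receptor gene CD163 0.0848 (SE 0.0925) and COLEC12 -0.0741 (SE 0.0714). MRC1, the mannose receptor, had -0.235 (SE 0.0762), and over its 17 regions the TREM2-R47H libraries called 11, 8 and 10 and the WT libraries 15, 10 and 17. Of the 24 lists with at least 3 genes tested, 20 had a median above that of all genes. With lists of equal length, 11 of 17 did, against -0.00342 for all genes. Microglia and macrophage markers then had -0.00934, neural markers -0.103 and homeostatic genes -0.00934. TREM2 signalling had -0.00720, phagocytosis -0.00540 and the genes around BCOR -0.0103. Disease-associated genes had 0.211, AP-1 and ATF factors 0.218 and Alzheimer risk loci 0.0431.

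One library stood apart by gene density. TREM2-R47H 1 had a mean depth-adjusted call of 0.152 in 1 Mb windows with at least 20 genes, where the other 5 libraries lay between -0.0774 and -0.00766, and of -0.109 in windows with 2 genes or fewer, where they lay between -0.0285 and 0.0494. Without it the medians were 0.0658 for disease-associated genes, 0.0364 for lipid genes, 0.0525 for neural markers, 0.00298 for perivascular macrophage markers and 0.110 for lysosomal genes, against 0.000398 for all genes. Some medians were larger without it, with 0.0926 for Alzheimer risk loci, 0.101 for housekeeping genes, 0.0846 for interferon genes and 0.0766 for myeloid transcription factors. Of the 23 lists that then had at least 3 genes tested, 20 had a median above that of all genes. With calls also adjusted for the number of genes in the window, a setting added after the values were seen, the first 5 of these lists had 0.0350, 0.0609, 0.0940, 0.0292 and 0.0697, against 0.00209. In that setting CTSD had 0.159, FTH1 0.131, ITGAX 0.126, LRP1 0.133, TFEB 0.142, VAV2 0.108, SPI1 0.0958 and FCGR3A 0.204. In the same setting the medians were 0.0503 for Alzheimer risk loci, 0.0723 for myeloid transcription factors, 0.0300 for TREM2 signalling, 0.0199 for homeostatic genes and 0.0127 for phagocytosis, and 18 of 24 lists had a median above that of all genes.

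**Figure D3:**
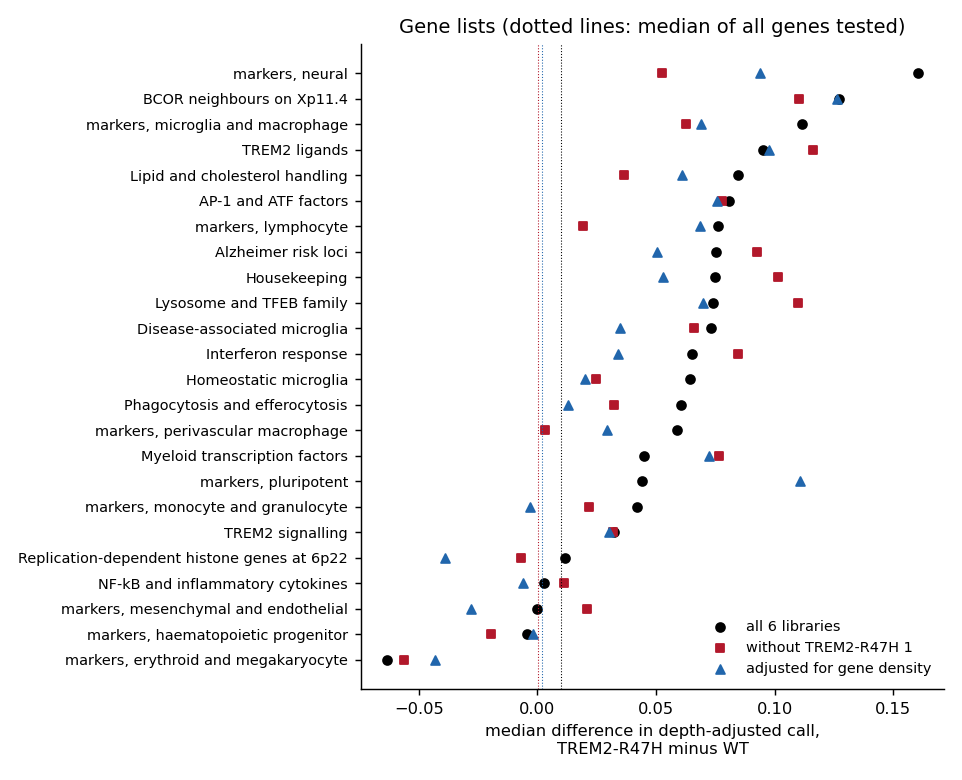
Median over the tested members of each gene list of the difference in depth-adjusted call, TREM2-R47H minus WT (x axis), with all 6 libraries, without TREM2-R47H 1 and with the added adjustment for gene density. Dotted lines mark the median of all genes tested in each setting, and 20 of 24 lists lie above it with all 6 libraries.

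Windows of 1 Mb were compared in the same way. None of 2789 windows passed in limma (0%, smallest adjusted p 0.332), and 105 had an unadjusted p under 0.05 on the higher side (3.76%) and 237 on the lower (8.5%). Higher windows held a median of 12 genes and lower windows 1 gene, against 5 for all windows. Without TREM2-R47H 1 the numbers were 78 and 125 windows, with medians of 4 and 3 genes. The smallest p on the higher side belonged to neighbouring windows of the X chromosome, chrX:40000001-41000000 with BCOR, a corepressor of BCL6, ATP6AP2, an accessory protein of the proton pump of lysosomes, and MED14, a Mediator subunit, and chrX:39000001-40000000, in which no protein-coding gene has its centre. Their differences were 0.273 (SE 0.0488) and 0.230 (SE 0.0502). In a fit over all 21 libraries both passed, at 0.274 (SE 0.0440, limma adjusted p = 0.0147) and 0.212 (SE 0.0372, limma adjusted p = 0.0228), and no other window did. That fit takes the difference from the same TREM2-R47H and WT libraries, so it is no new evidence on these windows. The other lines enter only the merging, the adjustment and the variance. With lists of equal length no window passed (limma, smallest adjusted p 0.557). After these windows, the smallest p on the higher side in the 6 libraries belonged to chr2:126000001-127000000 with GYPC, chr7:128000001-129000000 with LEP and IMPDH1, and chr15:67000001-68000000 with SMAD3. Lower windows with the smallest p were chr1:118000001-119000000 with TBX15 and SPAG17, chr18:38000001-39000000, chr7:34000001-35000000 with BMPER and NPSR1, chr10:65000001-66000000 and chr9:102000001-103000000. When TREM2-R47H 2 was left out, 4 windows passed on the lower side, that on chromosome 9 (-0.467) and windows starting at chr13:83000001 (-0.466), chr2:116000001 (-0.374) and chr3:2000001 (-0.481), with limma adjusted p from 0.0396 to 0.0478. None of 23 chromosomes passed (0%, limma, smallest adjusted p 0.460, and none had an unadjusted p under 0.05).

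The stretch chrX:39000001-41000000 held 117 regions, 5 of them gained and none lost. TREM2-R47H libraries called 78.6%, 47.9% and 82.9% of them and WT libraries 61.5%, 21.4% and 50.4%. Depth-adjusted calls were 0.134, 0.122 and 0.129 against -0.115, -0.0665 and -0.205. The stretch was chosen by the smallest p on this same value, which favours such a gap between lines. Over the rest of the X chromosome (leaving out chrX:21000001-22000000 as well) they were -0.0760, 0.00970 and 0.0166 against -0.0148, 0.0241 and 0.0404. Of 33 regions nearest to BCOR, TREM2-R47H libraries called 26, 18 and 27 and WT libraries 20, 4 and 18, and of 10 nearest to MED14 8, 5 and 8 against 5, 1 and 2. BCOR had a difference of 0.279 (SE 0.0658) and MED14 of 0.466 (SE 0.103), both with a limma adjusted p of 0.328. The list of BCOR neighbours reaches beyond the stretch, and of its 15 genes tested 10 were positive and 5 negative. Among the negative were PRRG1 at -0.291 (SE 0.0658, limma adjusted p = 0.328) and SRPX at -0.308 (SE 0.0900, limma adjusted p = 0.356). The adjoining window chrX:41000001-42000000 had 0.164 (limma adjusted p = 0.391), while chrX:38000001-39000000 had -0.0852 and chrX:42000001-43000000 -0.0254.

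**Figure D4:**
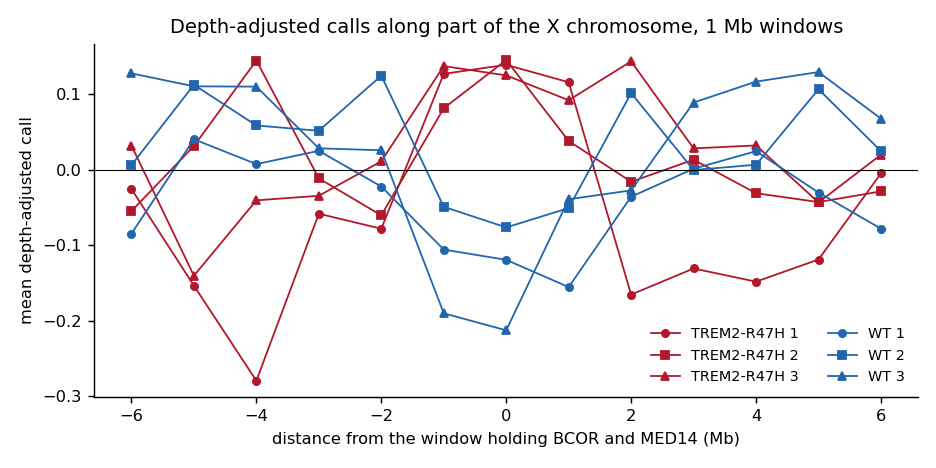
Mean depth-adjusted call of each library (y axis) in 1 Mb windows of the X chromosome, by distance (Mb) from the window that holds BCOR and MED14. At 0 and -1 Mb the 3 TREM2-R47H libraries lie above 0 and the 3 WT libraries below 0.

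Measures that do not rest on presence or absence were taken from the 36579 regions called in all 6 libraries. The first of them, position in the file, served as an ordering of peaks within a list. On average, peaks in the first 10% of a list had a counterpart in 4.97 to 5.00 of the 5 remaining libraries, and those in the last 10% in 1.18 to 3.69. In limma no region differed in adjusted file-order percentile (0%, smallest adjusted p 0.521), with 1386 higher (3.79%) and 1825 lower (4.99%) at an unadjusted p under 0.05. In the BCOR stretch, 23 regions were called in all 6 libraries, and all 23 stood higher in TREM2-R47H, with a median difference of 15.8 points. Library means were 77.3, 78.4 and 75.4 in TREM2-R47H and 64.7, 49.0 and 60.5 in WT. At 17 of the 23 every TREM2-R47H library was above every WT library, which held for 7.65% of all 36579 regions (the reverse order held for 8.82%), and WT 2 was the lowest library on average. Peaks of single-peak regions in the stretch were wider in all 22, by a median of 0.30 on the log2 scale. The stretch was chosen by calls in these same 6 libraries, so its file order and widths are not independent of that choice. Neighbouring regions are also not replicates of a line. Another stretch of the X chromosome, chrX:21000001-22000000, chosen with its values known, had 10 of 12 regions higher in file order, with a median of 11.8 points. Over the other X regions 639 of 1437 were higher, with a median of -0.590.

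**Figure D5:**
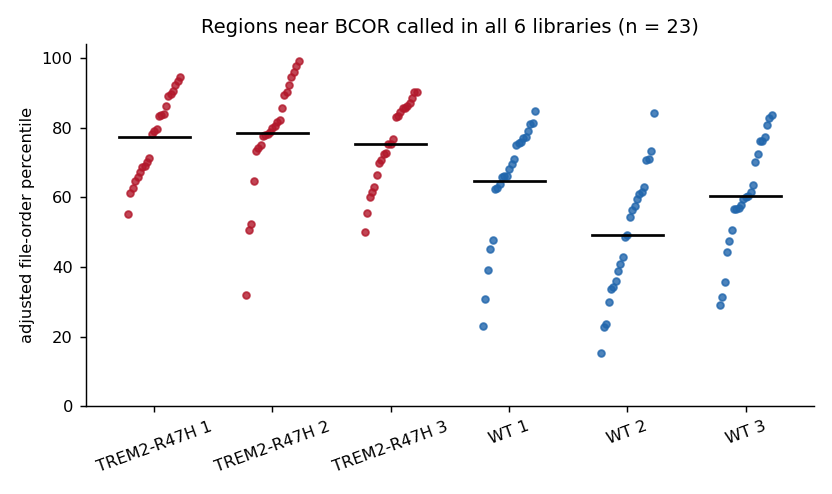
Adjusted file-order percentile (y axis, 100 is the first peak of a list) of the 23 regions of the BCOR stretch that all 6 libraries called, 1 point per region, sorted within each library, with bars at the mean. The TREM2-R47H means lie between 75.4 and 78.4 and the WT means between 49.0 and 64.7.

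Elsewhere, single regions led in file order. Higher in TREM2-R47H with the smallest p were a region near TMED7-TICAM2, which encodes an adapter of Toll-like receptor 4 signalling (chr5:115642989-115643824, 30.5 points, SE 2.32), chr4:81724682-81725611 (37.7 points), ALG9 (20.4), EPHX2, the soluble epoxide hydrolase (40.9), and chr2:215746066-215750291 (26.4). Lower were a region near CYRIA, a regulator of RAC1 and actin (-34.7 points, SE 3.15), PPM1H (-18.7), chr7:88546444-88547337 (-25.9), one near LDB2 (-21.4) and chrX:9351717-9353606 (-22.5). Each had a limma adjusted p of 0.521.

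Width was tested in 33550 regions with 1 peak in every library, and none passed in limma (0%, smallest adjusted p 0.669, 842 wider or 2.51% and 969 narrower or 2.89% at an unadjusted p under 0.05). The region at TBC1D7, a subunit of the TSC complex, measured 1616, 962 and 1550 bp in TREM2-R47H and 760, 501 and 627 bp in WT (1.04 on the log2 scale, SE 0.14, limma adjusted p = 0.669). Other wider regions lay in DLGAP2 (1.06), CDK17 (1.16), CTIF (0.85) and at the start of WBP1L (0.78). A region near SGCD, a sarcoglycan gene, measured 501, 501 and 627 bp against 1439, 1318 and 1458 bp (-1.44, SE 0.18, limma adjusted p = 0.669), and all 15 libraries of other lines called it. The others narrower in TREM2-R47H lay in RFX4 (-1.07), NKAIN3 (-1.33), TTK (-0.86) and LMCD1 (-1.28). In these 10 regions every TREM2-R47H library lay on the same side of every WT library in raw width, which their choice by smallest p favours. How many of the 33550 regions are split in this way was not counted.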

How the data were processed

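Open chromatin was profiled in 21 libraries of 7 lines, of which 3 TREM2-R47H and 3 WT libraries are compared here. Reads were processed with cutadapt 1.18, STAR 2.7, HOMER 4.10 and DESeq2, per the submitters' processing notes, which give no roles for them, and no source used here names the build. The deposited peak lists came from HOMER, with peaks called per library, per the file headers. Their score column holds the value 1 at every peak, as deposited by the authors, so neither height nor reads per peak could be compared. File positions and widths of peaks (other units) are in base pairs, as deposited. Peaks off the 22 autosomes and X (361 of 474221) were left out.

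Regions were peaks merged where they shared 1 bp. Regions were placed with RefSeq protein-coding genes (GRCh38.p14), and 50.3% of 22131 promoter windows lay under regions called in all 6 libraries, against 3.47% and 3.41% after a shift by 10 kb either way. Calls were adjusted for recurrence within each library, and width (log2) and file-order percentile by loess (span 0.3) on their mean. Tests used limma 3.58.1 in R 4.3.3 with Benjamini-Hochberg adjustment, genes with at least 5 regions within 100 kb, windows with at least 10, and features with 1 value in every library left out. Library values had exact permutation tests (scipy 1.17.1). The gene and width tests were tried on simulated data, where the gene test called none of the genes built to differ without a replicate term and most of those with large differences with one. Genes were named as follows: TREM2, TYROBP, SYK, PLCG2 and APOE; for each test up to 10 features past the threshold per direction or, where none passed, the 5 smallest p-values; the highest all-or-none regions in file order (10 per direction and kind); and up to 4 members per list. The line, gene lists and tests were chosen with earlier results of these data known, and the BCOR neighbours and histone genes because of them. Alternatives were other merging rules, equal list lengths, all 21 libraries, other filters and windows, a replicate block and leaving out each library. Same-numbered libraries deviated together in every pair for width alone (correlations 0.257, 0.285 and 0.115), so the numbers were taken to pair libraries for width only.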

Additional observations from a re-analysis of the deposited data

How the results depend on the processing

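With a replicate block (a term for the replicate number, which depth follows) no gene, window, chromosome, width or file-order value passed in limma (0 each, smallest adjusted p 0.305, 0.142, 0.281, 0.684 and 0.395). At an unadjusted p under 0.05 the block gave 560 genes higher and 335 lower, and 202 windows higher and 325 lower. The correlations of same-numbered libraries were 0.123, -0.359 and 0.0758 for genes, 0.312, -0.0603 and 0.210 for windows, and 0.382, 0.178 and 0.0152 for file order, not above 0.1 in every pair.

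As a share of the merged regions of each setting, gained regions made up 0.781% with lists of equal length and 0.182% to 2.08% when each library was left out in turn, and lost regions 0.991% (670 regions against 509 in the full lists) and 0.444% to 3.26%. Shares are given here in place of the planned counts, a choice made after the values were seen. The difference in peaks per library, -1022, turned to 3320 with peaks of at least the median width, and lay between -17288 and 10680 without 1 library. Gene-end share differences lay between -0.709 and 2.95 points, those inside genes between -1.12 and 1.02, and the median width difference between -2.5 and 60.5 bp, without 1 library each. Windows passing on the higher side numbered 2 with all 21 libraries, and those on the lower side 0 to 4 without 1 library. Lists with a median above all genes numbered 11 of 15 with at least 10 regions per gene and 11 of 17 with lists of equal length, where fewer lists kept 3 genes, and 18 of 24 adjusted for gene density. With gene-end regions alone, ACSF2, SPI1 and VAV2 had differences of -8.18e-05, -4.09e-05 and -8.18e-05. The causes were not tested. The other values that answer a comparison (172) kept their direction and side of the threshold or, for counts and shares of regions, stayed within 1.5 times.

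Depth limits most calls: WT 2 and TREM2-R47H 2 are the shallowest libraries, peak lists carry no read counts, and an uncalled region is not shown to be closed. These libraries differ in more than depth. The file headers give a fragment length of 262 for WT 2 and 136 for TREM2-R47H 2, against 74 for the others. Their tag thresholds are 8 and 9, against 14 to 24. What these settings do to the calls was not tested.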
